A study of Mus musculus with 9 samples.

Results

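The genes described here were 10 endoderm transcription factors and markers, Foxa1, Foxa2, Foxa3, Sox17, Gata4, Gata6, Hhex, Cer1, Cxcr4 and Hnf4a, taken by symbol from a table of 23453 mouse genes, in which all 10 had a row. RNA was sequenced from 9 libraries of mouse cells in 3 states, with 3 libraries per state. EpiLCs (epiblast-like cells) came from naive ESCs kept for 48 h in N2B27 with 1% KSR, Activin and Fgf2. aEpiLCs, which model anterior epiblast, were EpiLCs cultured for a further 24 h in N2B27 basal medium, to which the study's methods add the same KSR, without Activin or the Wnt agonist. pEpiLCs, which model posterior epiblast, were EpiLCs cultured for a further 24 h with Activin and CHIR99021, a Wnt/beta-catenin agonist. The study calls the cells wild-type, and no source used here says whether the 3 libraries of a state came from separate cultures, so the p-values measure only the spread between these libraries. Both later states were cultured 24 h longer than EpiLCs, so that time and medium cannot be told apart in a comparison with EpiLCs.

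Definitive endoderm forms at gastrulation, when epiblast cells pass through the anterior primitive streak under strong Nodal and Wnt signalling, which Activin and CHIR99021 mimic in culture. EOMES, a T-box factor, and SMAD proteins act early in this step, FOXA2 and SOX17 mark the cells that take the endoderm path, and the HNF factors come on as gut and liver form. Hardly any of these genes belongs to that lineage alone. FOXA2 also marks the axial mesoderm of the node, GATA4 and GATA6 also act in heart mesoderm and in extraembryonic endoderm, and CXCR4 is found on nascent mesoderm.

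The pEpiLC libraries did not behave alike for these genes. Foxa2 was high in all 3 pEpiLC libraries and nearly absent from the other 6. Foxa1, Sox17, Gata4, Gata6, Cer1 and Cxcr4 were high in pEpiLC replicate 1 and at or near the level of the other states in replicates 2 and 3, although Cer1, with 7 and 13 counts, was above it there too. Hhex was modestly higher in all 3, Foxa3 differed little between states, and Hnf4a had at most 5 counts in any library.

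Libraries held 20560564 to 23417917 counts, pEpiLC replicate 1 the fewest. Values are CPM, that is counts scaled to a common library total after TMM normalisation, and 3 counts, taken as the floor of detection, came to between 0.130 and 0.143 CPM. pEpiLC replicate 1 stood apart from its group. Of the 17249 genes with at least 10 counts in some library, 244 were more than 4-fold above both other pEpiLC libraries in it (1.41%) and 87 more than 4-fold below both, against 7 to 22 higher and 6 to 20 lower in each of the other 8 libraries set against its own group. Of the 9 endoderm genes with that many counts, 6 were among the 244, and in the other 8 libraries none of the 9 was more than 4-fold from its group. The fitted values of the 10 genes and the counts over lists in pEpiLCs are therefore given with and without replicate 1. The test was the quasi-likelihood F test of edgeR with Benjamini-Hochberg adjustment, and a gene was called at an adjusted p under 0.05 together with a log2 fold change of 1 or more in size. The set of genes that entered each test was chosen by a filter on low counts, so a gene absent from 1 state entered through the state in which it was high.

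**Figure D1:**
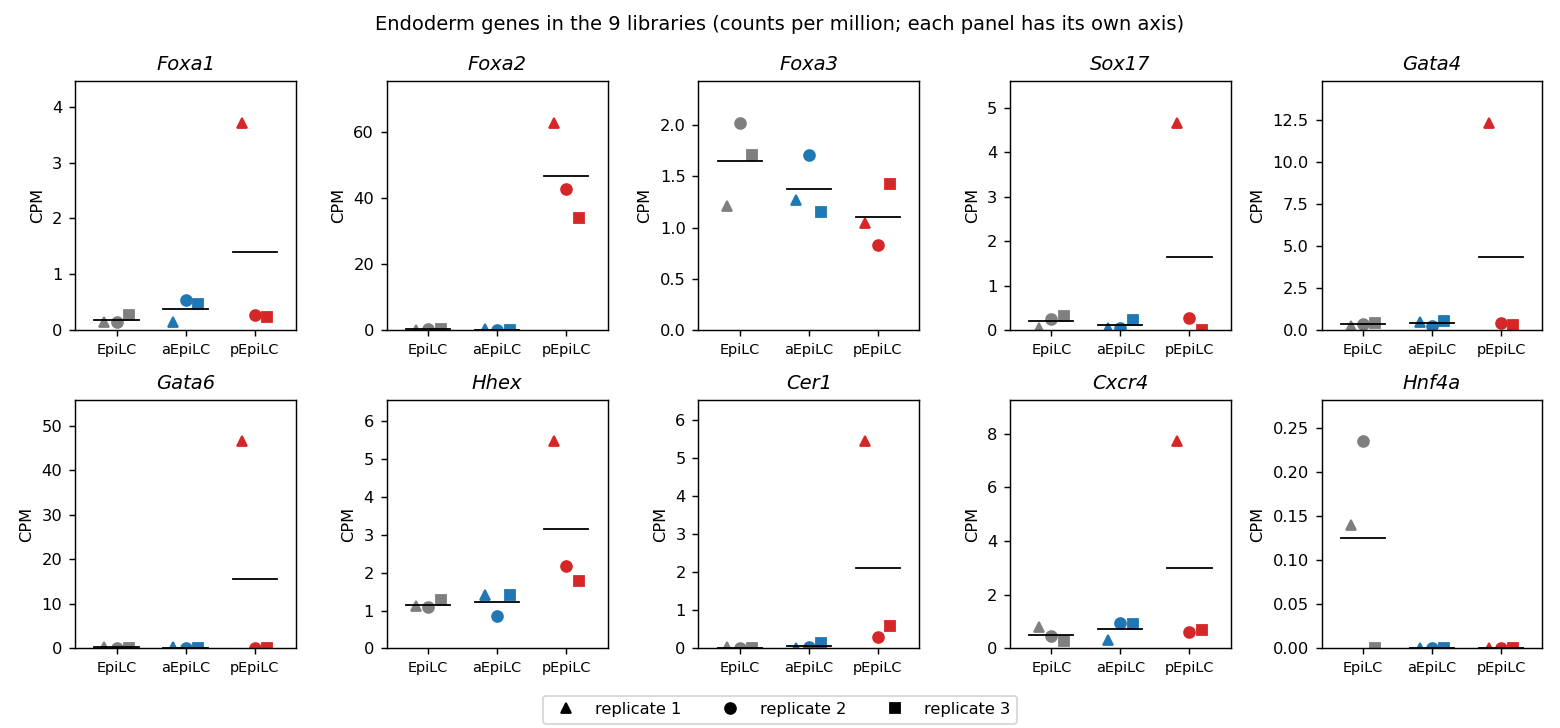
Level in CPM of each of the 10 genes (vertical axis, a separate scale per panel) in EpiLCs, aEpiLCs and pEpiLCs; each symbol is a library, its shape gives the replicate and the black line is the mean of the 3 libraries. In 6 panels the pEpiLC mean is carried by replicate 1 (triangle), as for Gata6 with 46.5 CPM against 0.0869 and 0.138 CPM, whereas all 3 pEpiLC libraries of Foxa2 lie at 34.0 CPM or more.

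Foxa2 encodes a forkhead factor that opens closed chromatin and is needed for node, notochord and definitive endoderm. It lies on chromosome 2 of GRCm38, on the minus strand, at 148042877 to 148046969 in the GENCODE vM21 annotation, with 4 transcripts and no overlapping gene. The study's primers for its qRT-PCR are shown because they fix which part of the transcript counts as Foxa2 in that assay. The forward primer matched positions 148045843 to 148045861 and the reverse primer 148044682 to 148044699, in adjoining coding exons of 2 of the 4 transcripts (exons 2 and 3 of the longer, exons 1 and 2 of the shorter), and they enclose 178 bases of both.
Foxa2 forward primer: catccgactggagcagcta
Foxa2 reverse primer: gcgcccacataggatgac

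RefSeq (GRCm38.p6) gives 3 transcription starts for Foxa2, all on the minus strand. The promoter windows of the outermost and the innermost start, 300 bases each from 250 before to 50 after the start, are printed because Foxa2 was the gene of the set called higher in pEpiLCs in both comparisons. The capitals mark matches, on either strand, to 7 short motifs that are spelled out with their frequencies further on, and bases are counted from the 5′ end of the window. The outermost window, chr2:148046920-148047219, held a SMAD match at bases 268 to 272. The innermost window, chr2:148045415-148045714, held a GATA match at bases 68 to 73 and a TCF/LEF match at bases 266 to 271, and the window between them held none.
Foxa2 outermost start: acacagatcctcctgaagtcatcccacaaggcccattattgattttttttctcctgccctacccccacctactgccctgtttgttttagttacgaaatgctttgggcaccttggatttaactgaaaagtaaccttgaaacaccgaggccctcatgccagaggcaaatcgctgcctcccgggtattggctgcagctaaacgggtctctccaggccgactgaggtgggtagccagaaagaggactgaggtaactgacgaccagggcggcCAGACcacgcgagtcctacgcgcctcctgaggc
Foxa2 innermost start: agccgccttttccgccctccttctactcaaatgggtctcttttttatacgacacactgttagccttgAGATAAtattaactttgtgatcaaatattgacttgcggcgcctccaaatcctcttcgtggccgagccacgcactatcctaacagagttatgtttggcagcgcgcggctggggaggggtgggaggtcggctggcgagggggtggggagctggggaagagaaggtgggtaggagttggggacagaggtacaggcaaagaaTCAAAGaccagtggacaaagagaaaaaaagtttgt

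The TCF/LEF core, the letters CTTTGA, stood in 16.0% of all 32851 promoter windows of this length. Among the 10 windows of the 7 endoderm genes that had any, it stood in 1, that of Foxa2. The SMAD letters CAGAC stood in 49.6% of all windows and in 2 of the 10, Foxa2 and Cer1. The GATA letters AGATAA stood in 11.2% of all windows and in 2 of the 10, those of Foxa2 and Hnf4a. The FOXA letters TGTTTAC stood in 3.65% of all windows and in 1 of the 10, that of Foxa1. The T-box letters AGGTGTGA were present in 1.28% of all windows and in 0 of the 10. The same was so for the FOXH1 letters TGTNNATT, present in 12.2% of all windows and in 0 of these. The SOX letters ATTGTT, present in 10.7% of all windows, were in 0 of the 10 as well. These matches are a description of letters and not of binding. The windows of Foxa1 (chr12:57546062-57546361, minus strand, FOXA match at bases 110 to 116) and Cer1 (chr4:82885102-82885401, minus strand, SMAD match at bases 38 to 42) are printed because both genes belong to the set that was high in pEpiLC replicate 1.
Foxa1 promoter: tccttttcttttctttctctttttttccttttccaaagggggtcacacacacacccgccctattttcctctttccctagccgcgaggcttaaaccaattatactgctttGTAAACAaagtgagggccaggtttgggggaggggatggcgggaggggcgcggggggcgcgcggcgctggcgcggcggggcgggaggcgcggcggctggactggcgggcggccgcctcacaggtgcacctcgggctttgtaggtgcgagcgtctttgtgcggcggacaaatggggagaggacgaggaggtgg
Cer1 promoter: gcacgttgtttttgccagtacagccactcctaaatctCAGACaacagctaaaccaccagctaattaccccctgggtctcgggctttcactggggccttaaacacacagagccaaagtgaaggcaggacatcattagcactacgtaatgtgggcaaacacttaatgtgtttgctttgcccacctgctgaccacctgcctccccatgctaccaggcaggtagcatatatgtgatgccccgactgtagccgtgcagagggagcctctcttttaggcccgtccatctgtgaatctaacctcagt

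Foxa2 had 1, 4 and 4 counts in the 3 EpiLC libraries and 4, 0 and 2 in the aEpiLC libraries, against 1317, 980 and 740 in the pEpiLC libraries. In CPM these were 0.0466, 0.189 and 0.176 in EpiLCs, 0.188, 0 and 0.0920 in aEpiLCs, and 62.8, 42.6 and 34.0 in pEpiLCs. The lowest pEpiLC library was far above the highest of the other 6, and replicate 1 was 1.64-fold above the mean of the other pEpiLC libraries. The mean was 46.5 ± 14.8 CPM in pEpiLCs, 0.137 ± 0.0785 CPM in EpiLCs and 0.0932 ± 0.0938 CPM in aEpiLCs (SD, n = 3 each), and EpiLCs and aEpiLCs overlapped. Foxa2 rose against EpiLCs by a log2 fold change of 8.36 (SE 0.399, edgeR adjusted p = 2.35e-05), and by 8.09 without pEpiLC replicate 1 (edgeR adjusted p = 1.45e-12). Against aEpiLCs it rose by 8.89 (SE 0.480, edgeR adjusted p = 9.04e-05), and by 8.62 without that library (edgeR adjusted p = 4.92e-09). Each of the 15 alternatives of either comparison called Foxa2. Their adjusted p ran from 9.14e-82 to 0.000722 against EpiLCs and from 2.93e-79 to 0.00244 against aEpiLCs. An exact two-sided permutation test of 3 libraries against 3 gave p = 0.1 in both comparisons, the smallest p this design allows. The reference libraries held 0 to 4 counts each, so the size of both fold changes rests on few counts.

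Foxa1 and Foxa3 are the close relatives of Foxa2, and FOXA1 shares its chromatin-opening role in gut, lung and liver. Foxa1 had 3, 3 and 6 counts in EpiLCs, 3, 12 and 10 in aEpiLCs, and 78, 6 and 5 in pEpiLCs. In CPM it was at 3.72 in pEpiLC replicate 1 and at 0.261 and 0.230 in replicates 2 and 3, which lay between the lowest and the highest of the other 6 libraries. Replicates 2 and 3 together stood at a ratio of 1.34 to EpiLCs (95% counting interval 0.535 to 3.32) and of 0.642 to aEpiLCs (0.285 to 1.35). It did not pass the filter on low counts in any comparison. Without that filter the edgeR adjusted p was 0.0754 against EpiLCs (0.048 to 0.73 over the 3 alternatives that tested it). Of these, 1 called it, the fit of all 9 libraries, which kept pEpiLC replicate 1. Against aEpiLCs the edgeR adjusted p was 0.322 (0.177 to 0.66 over 7, none of which called it). When pEpiLC replicate 1 was also left out, the edgeR adjusted p was 0.73 and 0.66.

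Foxa3, which acts later in liver, had 26, 43 and 39 counts in EpiLCs, 27, 38 and 25 in aEpiLCs and 22, 19 and 31 in pEpiLCs. Its mean was 1.65 ± 0.411 CPM in EpiLCs, 1.38 ± 0.295 CPM in aEpiLCs and 1.10 ± 0.303 CPM in pEpiLCs (SD, n = 3 each), and the 3 states overlapped. The log2 fold change was -0.56 against EpiLCs (SE 0.321, edgeR adjusted p = 0.189) and -0.32 against aEpiLCs (SE 0.318, edgeR adjusted p = 0.537). Without pEpiLC replicate 1 these were -0.53 (edgeR adjusted p = 0.221) and -0.29 (edgeR adjusted p = 0.635). Over the 16 alternatives of each comparison, the adjusted p of Foxa3 ran from 0.124 to 0.447 and from 0.356 to 0.869. It was the only expressed member of the 10 whose highest library was not pEpiLC replicate 1, apart from Hnf4a with its few counts. The FOXA family thus held a member high in each pEpiLC library, a member high in 1 of them and a member that did not pass the test in either direction.

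SOX17, an SRY-related factor of definitive and extraembryonic endoderm, is read together with FOXA2 to call endoderm. Sox17, on chromosome 1 at 4490931 to 4497354, had 1, 5 and 7 counts in EpiLCs, 1, 1 and 5 in aEpiLCs and 98, 6 and 0 in pEpiLCs. pEpiLC replicate 1 had 4.67 CPM, and replicates 2 and 3 had 0.261 and 0 CPM, below the 0.308 CPM of the highest EpiLC library. Replicate 1 held 94.2% of the pEpiLC counts. The 2 other pEpiLC libraries together had 0.674 times the EpiLC level (95% interval 0.210 to 1.90, an exact binomial interval that covers counting error only) and 1.25 times the aEpiLC level (0.347 to 4.34). No rise of Sox17 was detected in those libraries. Sox17 did not pass the filter on low counts, and without it the edgeR adjusted p was 0.141 against EpiLCs and 0.162 against aEpiLCs, and 0.757 and 0.925 when pEpiLC replicate 1 was also left out. The predicted gene Gm37587 overlaps Sox17 on the other strand, and since the counting is not stated to use strand, reads of the pair cannot be told apart.

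GATA4 and GATA6 are zinc-finger factors of endoderm and heart. Gata6, on chromosome 18 at 11052064 to 11085635, showed the widest gap between pEpiLC libraries. It had 9, 4 and 4 counts in EpiLCs, 6, 1 and 2 in aEpiLCs, and 976, 2 and 3 in pEpiLCs. In CPM, pEpiLC replicate 1 stood at 46.5, while replicates 2 and 3 stood at 0.0869 and 0.138. The ratio of replicate 1 to the other pEpiLC libraries together was 417 (95% counting interval 178 to 1287). Its size rests on their 2 and 3 counts, at or below the floor. Replicate 1 was 111-fold above the next highest of all 9 libraries, which was an EpiLC library. Gata6 did not pass the filter, and without it the edgeR adjusted p was 0.0543 against EpiLCs and 0.0919 against aEpiLCs. When pEpiLC replicate 1 was also left out, the edgeR adjusted p was 0.382 and 0.917. The 2 lower pEpiLC libraries had 0.430 times the EpiLC level (0.124 to 1.21). The gene 1010001N08Rik overlaps Gata6 on the other strand, with the same limit as for Sox17.

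Gata4, on chromosome 14 at 63198922 to 63271692, had 5, 8 and 10 counts in EpiLCs, 10, 5 and 11 in aEpiLCs and 259, 10 and 7 in pEpiLCs. Only pEpiLC replicate 1, at 12.4 CPM, lay outside the range of the others, which ran from 0.225 to 0.506 CPM. Against aEpiLCs its log2 fold change was 3.43 (SE 1.39, edgeR adjusted p = 0.140), which was not called. Over its 14 alternatives the adjusted p ran from 0.0368 to 0.958. The 1 that called it, the likelihood ratio test, kept pEpiLC replicate 1. Without that library the log2 fold change was -0.07 (edgeR adjusted p = 0.947). Against EpiLCs it did not pass the filter, and without it the log2 fold change was 3.63 (edgeR adjusted p = 0.0633, 0.0338 to 0.897 over 3 alternatives, 1 of which called it) and 0.14 when pEpiLC replicate 1 was also left out (edgeR adjusted p = 0.897). The 2 other pEpiLC libraries had 1.08 times the EpiLC level (95% counting interval 0.542 to 2.11) and 0.953 times the aEpiLC level (0.485 to 1.83).

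Hhex encodes a homeobox repressor of anterior definitive and visceral endoderm and of the liver and thyroid buds. On chromosome 19, at 37434810 to 37440731, it had 24, 23 and 29 counts in EpiLCs, 30, 19 and 31 in aEpiLCs and 115, 50 and 39 in pEpiLCs. In CPM it was at 1.12, 1.08 and 1.27 in EpiLCs, 1.41, 0.855 and 1.43 in aEpiLCs and 5.48, 2.17 and 1.79 in pEpiLCs. Every pEpiLC library was above every library of the other states, and the EpiLC and aEpiLC libraries overlapped. Hhex rose against EpiLCs by a log2 fold change of 1.46 (SE 0.447, edgeR adjusted p = 0.0319). Without pEpiLC replicate 1 it was 0.80 (SE 0.290, edgeR adjusted p = 0.0318), short of the fold limit, and without EpiLC replicate 1, 2 or 3 the edgeR adjusted p was 0.0958, 0.102 and 0.0842, so that the call did not hold. Over its 16 alternatives against EpiLCs the adjusted p ran from 0.0078 to 0.102, and 10 called it. Against aEpiLCs the log2 fold change was 1.35 (SE 0.471, edgeR adjusted p = 0.0958), and 0.70 without pEpiLC replicate 1 (edgeR adjusted p = 0.153). Over the 16 alternatives of this comparison the adjusted p ran from 0.0393 to 0.265, and 3 called Hhex, all with that library kept. The exact permutation p was 0.1 in both comparisons.

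HNF4A, a nuclear receptor of liver, gut and visceral endoderm, is the latest marker of the set. Hnf4a had 3, 5 and 0 counts in EpiLCs and 0 in each aEpiLC and pEpiLC library. A count of 0 allows up to 3 counts, or 0.130 to 0.143 CPM, so that Hnf4a was not detectable in either later state at this depth. Its own transcripts overlap Hnf4aos on the other strand and Gm25881 on the same strand.

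Cer1 encodes Cerberus, a secreted antagonist of Nodal and BMP made by anterior endoderm. On chromosome 4, at 82881751 to 82885148, it had 1, 0 and 0 counts in EpiLCs, 0, 1 and 3 in aEpiLCs and 114, 7 and 13 in pEpiLCs. The pEpiLC libraries stood at 5.44, 0.304 and 0.597 CPM, above each of the other 6, none of which exceeded the floor. The 134 pEpiLC counts against 1 in EpiLCs gave a CPM ratio of 133 (95% counting interval 23.5 to 5305). Without replicate 1 the 20 counts gave a ratio of 29.2 (4.67 to 1211) against EpiLCs and of 7.29 (2.44 to 29.3) against the 4 counts of aEpiLCs. Cer1 did not pass the filter on low counts. Without it the edgeR adjusted p was 0.0113 against EpiLCs (0.00358 to 0.0738 over 6 alternatives, 3 of which called it) and 0.0438 against aEpiLCs (0.0301 to 0.173 over 6, 2 of which called it). When pEpiLC replicate 1 was also left out, the call against EpiLCs held (log2 fold change 4.46, edgeR adjusted p = 0.00358) and that against aEpiLCs did not (2.77, edgeR adjusted p = 0.0631, against 4.97 with all libraries). The exact permutation p was 0.1 in both comparisons.

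CXCR4 is the receptor for the chemokine CXCL12 and is used with KIT to sort definitive endoderm. Cxcr4, on chromosome 1 at 128588199 to 128592293, had 17, 10 and 6 counts in EpiLCs, 7, 21 and 20 in aEpiLCs and 162, 14 and 15 in pEpiLCs. pEpiLC replicate 1 stood at 7.73 CPM, and replicates 2 and 3, at 0.608 and 0.689 CPM, lay within the range of the other states. The log2 fold change against EpiLCs was 2.57 (SE 1.05, edgeR adjusted p = 0.0822). Over its 15 alternatives the adjusted p ran from 0.0116 to 0.616, and 6 called it, all with pEpiLC replicate 1 kept. Without that library the log2 fold change was 0.38 (edgeR adjusted p = 0.560). Against aEpiLCs it was 2.03 (SE 1.01, edgeR adjusted p = 0.219), and -0.17 without that library (edgeR adjusted p = 0.849). None of the 15 alternatives of this comparison called Cxcr4, with adjusted p from 0.0874 to 0.885. Its ligand Cxcl12 rose in aEpiLCs against EpiLCs by a log2 fold change of 1.38 (edgeR adjusted p = 1.06e-07). In pEpiLCs Cxcl12 had 31.3, 89.7 and 83.1 CPM, lowest in replicate 1, against 33.5 to 42.8 CPM in EpiLCs. Its log2 fold change against EpiLCs was 0.82 (edgeR adjusted p = 0.0908), and 1.16 without replicate 1 (edgeR adjusted p = 6.78e-08).

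**Figure D2:**
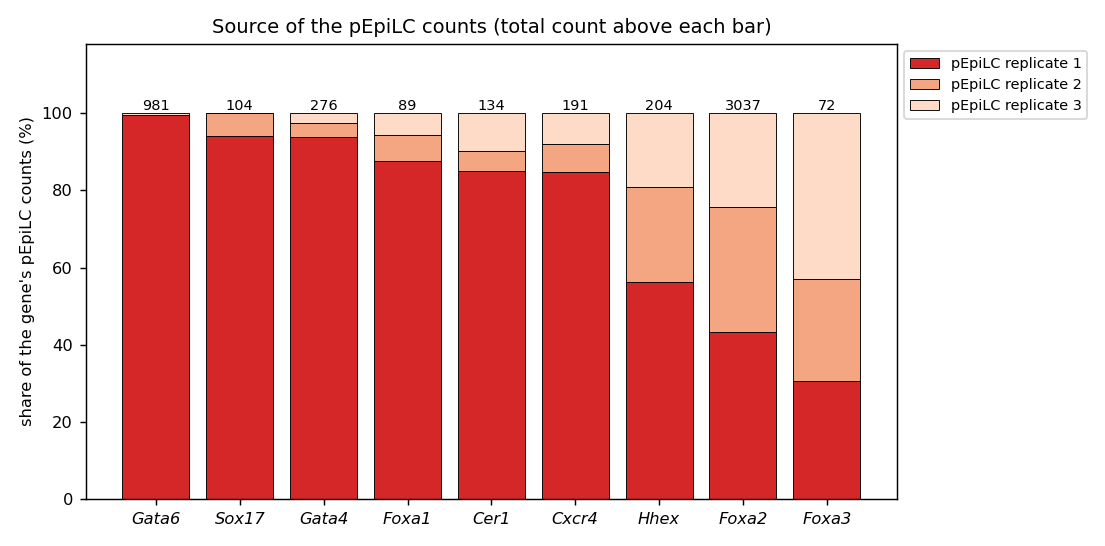
Share of each gene's pEpiLC counts (vertical axis, percent) that came from each of the 3 pEpiLC libraries, ordered by the share of replicate 1; the number above a bar is the total count. Replicate 1 held 84.8% or more of the counts of Gata6, Sox17, Gata4, Foxa1, Cer1 and Cxcr4, and 56.4%, 43.4% and 30.6% of those of Hhex, Foxa2 and Foxa3.

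The 9 genes with pEpiLC counts were ordered by how much of their signal came from pEpiLC replicate 1. Gata6 led with 99.5%, followed by Sox17 with 94.2%, Gata4 with 93.8%, Foxa1 with 87.6%, Cer1 with 85.1% and Cxcr4 with 84.8%. In replicate 1 the ratio to the other pEpiLC libraries together was 34.9 for Sox17 (95% counting interval 15.5 to 97.3), 32.5 for Gata4 (19.9 to 56.7), 15.1 for Foxa1 (8.01 to 31.6), 12.2 for Cer1 (7.52 to 20.7) and 11.9 for Cxcr4 (7.998 to 18.4). The numerator is 1 library and the intervals cover counting error only, so no order between these 5 genes is drawn from them.

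Levels can be compared between genes only per length. Dividing CPM by the total exon length of each gene in GENCODE vM21 gave RPKM, that is CPM per kilobase of exon, and the annotation used for the deposited counts is not given in the sources used here. In pEpiLC replicate 1, Foxa2 led with 26.5 RPKM, followed by Gata6 with 7.15, Cxcr4 with 4.27, Gata4 with 3.16 and Cer1 with 3.13 RPKM, and Foxa1, Hhex, Sox17 and Foxa3 had 1.12, 1.08, 0.979 and 0.515 RPKM. In replicates 2 and 3 Foxa2 had 18.0 and 14.3 RPKM, and no other gene of the 10 exceeded 0.699 RPKM, the value of Foxa3 in replicate 3. In EpiLCs and aEpiLCs the highest was Foxa3, with means of 0.811 ± 0.202 and 0.675 ± 0.145 RPKM (SD, n = 3 each), followed by Cxcr4 with 0.282 ± 0.147 and 0.404 ± 0.193 RPKM and Hhex with 0.229 ± 0.0200 and 0.243 ± 0.0642 RPKM. The libraries of Cxcr4 and Hhex overlapped in both states, so that the order of those neighbours did not exceed their spread. The sum of the 10 genes was 4.13 to 5.01 CPM in the EpiLC and aEpiLC libraries and 149.8, 47.5 and 39.2 CPM in the pEpiLC libraries. In bulk RNA, a higher level in a few cells and a lower level in many cannot be told apart.

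**Figure D3:**
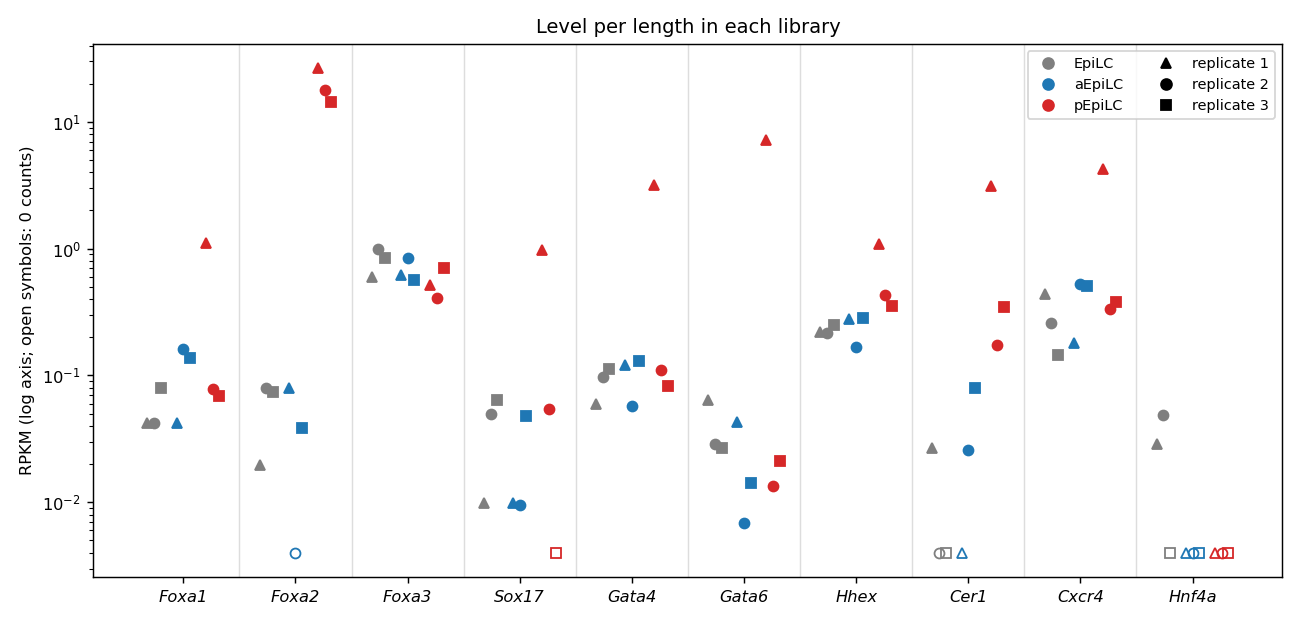
Level per length in RPKM (vertical axis, logarithmic) of the 10 genes in each library, coloured by state and shaped by replicate; open symbols at the bottom mark libraries with 0 counts. The 3 pEpiLC libraries of Foxa2, at 14.3 to 26.5 RPKM, lie above every other point, and the pEpiLC triangles (replicate 1) of 6 further genes lie apart from their squares and circles.

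Against EpiLCs, 2 of the 10 genes were called higher in pEpiLCs, Foxa2 and Hhex, of 4 that passed the filter, and 0 were called lower. Of all 15288 genes tested, 7.71% were called higher and 8.13% lower. Without pEpiLC replicate 1 it was 1 (Foxa2), with 7.05% of all genes called higher. Without the filter it was 3 (Foxa2, Hhex and Cer1), with 5.54% of all genes called higher, and it was 2 (Foxa2 and Cer1) with 5.17% when replicate 1 was also left out. With all 9 libraries in 1 fit it was 5 (Foxa2, Hhex, Cxcr4, Foxa1 and Gata4), with 7.82% of all genes. Of these, Cxcr4, Foxa1 and Gata4 were high in pEpiLC replicate 1 only, and this fit was not made without that library. DESeq2 called 3 higher and 0 lower, with 7.24% of all genes higher. At an unadjusted p below 0.05 there were 3 higher and 0 lower, beside 27.4% of all genes tested that were higher. Foxa2, Hhex and Cer1 had every pEpiLC library above every EpiLC library. So did 28.2% of the genes tested, a set without Cer1, and 3 of the 10 is near that share.

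Against aEpiLCs, 1 of the 10 genes was called higher in pEpiLCs, Foxa2, of 5 that passed the filter, and 0 were called lower, beside 2.55% and 4.74% of the 15198 genes tested. Without pEpiLC replicate 1 the count was again 1 (Foxa2) and 2.51% of all genes were called higher, and without the filter it was 2 (Foxa2 and Cer1) and 1.8%, or 1 (Foxa2) and 1.78% when replicate 1 was also left out. DESeq2 called 2 higher and 0 lower, with 2.82% of all genes higher, and the fit of all 9 libraries called 2 higher, with 3.01%. At an unadjusted p below 0.05 there were 3 higher and 0 lower, beside 14% of all genes tested that were higher. The same 3 genes, Foxa2, Hhex and Cer1, had every pEpiLC library above every aEpiLC library, as did 18.4% of the genes tested, again a set without Cer1. Both comparisons share the pEpiLC libraries and are not independent of each other.

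Between aEpiLCs and EpiLCs, 3 of the 10 genes passed the filter and edgeR called 0 of them, as did DESeq2 on the same genes. At an unadjusted p below 0.05 there were 0. Of the 15301 genes tested, 7.25% were called higher and 5.24% lower. The log2 fold change was -0.26 for Foxa3 (SE 0.294, edgeR adjusted p = 0.499), 0.08 for Hhex (SE 0.309, edgeR adjusted p = 0.845) and 0.53 for Cxcr4 (SE 0.490, edgeR adjusted p = 0.397).

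**Figure D4:**
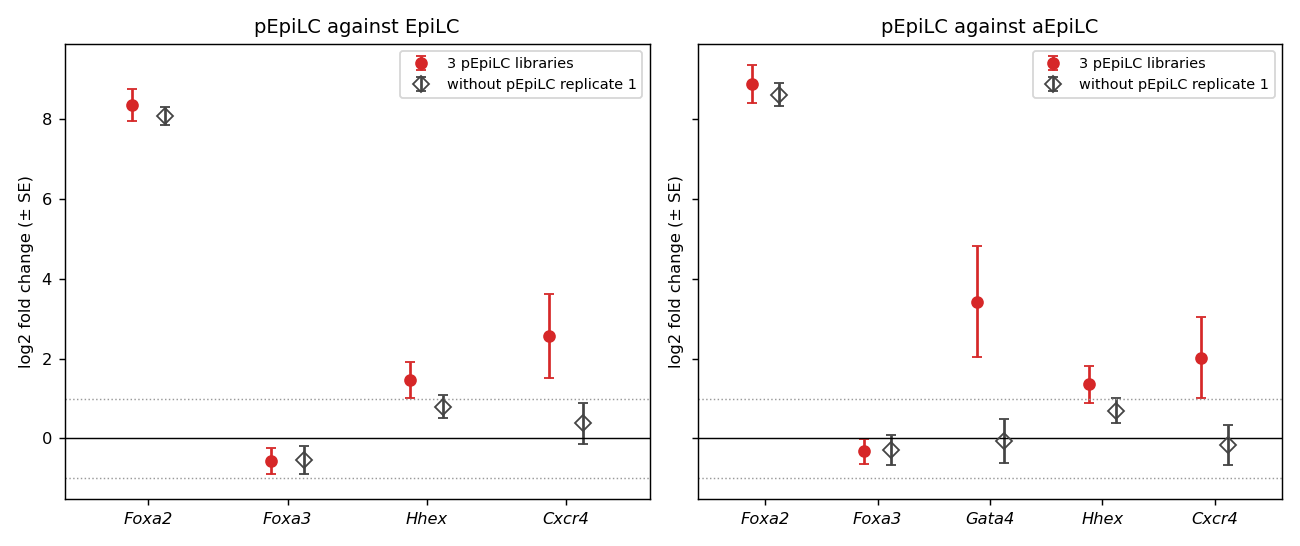
Log2 fold change (vertical axis, with its standard error) of the genes that passed the filter, for pEpiLCs against EpiLCs and against aEpiLCs, with all 3 pEpiLC libraries (filled) and without pEpiLC replicate 1 (open); dotted lines mark the fold limit of 1 on the log2 scale. Foxa2 stays above 8 in both, Hhex falls to 0.80 and 0.70, and Gata4 and Cxcr4 move to values between -0.17 and 0.38.

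Genes that act above or beside these 10 were read from lists. The shares of all tested genes called, beside which each list is to be read, were 7.71% higher and 8.13% lower in pEpiLCs against EpiLCs. For pEpiLCs against aEpiLCs they were 2.55% and 4.74%, and for aEpiLCs against EpiLCs 7.25% and 5.24%. Without pEpiLC replicate 1, 7.05% were called higher against EpiLCs and 2.51% against aEpiLCs. Of 14 mesendoderm regulators, all tested, 8 rose in pEpiLCs against EpiLCs and 0 fell, with a median log2 fold change of 1.18 beside 0.02 over all genes tested (8 rose and 1 fell without pEpiLC replicate 1, median 1.24). The 4 largest were T, Gsc, Lhx1 and Mixl1. Eomes, the T-box factor upstream of endoderm, had 3.22, 2.17 and 3.25 CPM in EpiLCs, 5.35, 4.54 and 4.69 CPM in aEpiLCs and 381, 239 and 216 CPM in pEpiLCs. It rose by 6.61 on the log2 scale against EpiLCs (edgeR adjusted p = 1.95e-05) and by 6.32 without replicate 1. Like Foxa2, Eomes was high in each pEpiLC library. Mixl1, a homeobox gene of streak mesendoderm, had 644, 37.3 and 35.9 CPM in pEpiLCs, and Gsc, which marks anterior streak and organiser, had 83.7, 10.5 and 9.51 CPM. Both were high in all 3 and highest in replicate 1, and Lhx1, with 208, 1.26 and 1.33 CPM, came closer to the pattern of Gata6. Against aEpiLCs 7 of the 14 rose and 1, Otx2, fell (8 and 0 without replicate 1), with a median of 3.80, and of 3.73 without it. In aEpiLCs against EpiLCs 1, Smad3, rose and 4 fell, Tdgf1, Prdm1, Nodal and Mixl1, of 12 tested.

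Of 18 genes of anterior and gut endoderm, 16 had a row and 10 were tested against EpiLCs. Cdx2, Trh, Prox1 and Krt19 rose and Sfrp5 fell, with a median of 0.30 (3 rose and 1 fell without pEpiLC replicate 1, median 0.34). Prox1, a factor of liver and pancreas buds, had 9.39, 5.21 and 6.16 CPM in pEpiLCs against 1.23 to 1.60 CPM in EpiLCs. Trh, an early marker of gut endoderm, had 13.0, 156 and 112 CPM in pEpiLCs, lowest in replicate 1, against 7.78 to 10.6 CPM in EpiLCs and 40.0 to 85.2 CPM in aEpiLCs. Cdx2, the hindgut and posterior homeobox gene, had 6.96, 1.04 and 0.919 CPM in pEpiLCs. Of the 16 genes, 9 were higher in replicate 1 than in both other pEpiLC libraries and 4 were lower than both. The same share over all genes was not counted, so no shift of the list is read from these counts. The summed level of the list was lowest in pEpiLC replicate 1, at 312 CPM, against 629 and 600 CPM in replicates 2 and 3. Epcam, Cldn6 and the keratins made up most of that sum, and Epcam stood at 145 CPM in replicate 1 against 230 and 237 CPM. Against aEpiLCs 2 rose and 2 fell of 9 tested (3 and 2 without replicate 1). In aEpiLCs against EpiLCs Trh, Krt8 and Krt19 rose and Sfrp5 fell, of 9. Krt19 rose there by a log2 fold change of 1.63 (edgeR adjusted p = 1.49e-05), beside 1.10 in pEpiLCs against EpiLCs (edgeR adjusted p = 0.00571).

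Genes of other lineages that express members of the set were read in the same way. Of 18 extraembryonic endoderm genes, 15 had a row and 10 were tested. Pdgfra and Col4a1 rose against EpiLCs and 0 fell, with a median of 0.11 (2 rose and 1 fell without replicate 1, median -0.01). The summed level was 113 to 122 CPM in EpiLCs, 261 to 281 CPM in aEpiLCs and 231, 136 and 139 CPM in pEpiLCs, so that replicate 1 was the highest of its group but below each aEpiLC library. Of the 15 genes, 7 were higher in replicate 1 than in both other pEpiLC libraries and 3 were lower than both, again without a share over all genes. Among the higher were Lama1 with 12.5 CPM against 2.65 and 2.76, Col4a1 with 105 CPM against 48.8 and 47.2, and Apob with 7.01 CPM against 2.65 and 1.79. Sparc, among the lower, had 43.1 CPM against 68.9 and 74.7. Apoa1, Sox7 and Spink1 had 0 counts in replicate 1 and were at or below 0.282 CPM in every library. Pdgfra, which is also a gene of early mesoderm, had 51.6, 2.13 and 2.11 CPM in pEpiLCs. Afp, Ttr and Apoa4 were not analysed here. In aEpiLCs against EpiLCs 4 rose and 0 fell, and in pEpiLCs against aEpiLCs 0 rose and 3 fell (1 and 4 without replicate 1).

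Of 9 genes of axial mesoderm and node, 8 had a row and 5 were tested against EpiLCs, of which T, Gsc, Lhx1 and Chrd rose, with a median of 7.99 (4 rose and 0 fell without pEpiLC replicate 1, median 2.24). Their sum was 14.3 to 18.3 CPM in EpiLCs and aEpiLCs and 1395, 232 and 249 CPM in pEpiLCs. Shh and Nog, made by the formed node and notochord, were at or below 0.189 CPM in every library, and Foxj1, of node cilia, had 3.62, 6.87 and 7.95 CPM in pEpiLCs against 9.38 to 13.5 CPM in the other states. Against aEpiLCs 3 rose and 1, Foxd4, fell of 6 tested (4 and 1 without replicate 1), and in aEpiLCs against EpiLCs 1, Foxd4, rose of 4 tested. Of 14 genes of cardiac, endothelial and blood mesoderm, 13 had a row and 5 were tested, of which 0 rose and Tal1 and Pecam1 fell against EpiLCs (0 and 3 without replicate 1). Mesp1, of the earliest cardiac mesoderm, did not pass the filter, and had 71.1, 0 and 0.0919 CPM in pEpiLCs and at most 0.283 CPM in the other 6 libraries. Kdr had 4.63, 0.304 and 0.230 CPM in pEpiLCs, and Lmo2, of blood and endothelium, had 5.53, 1.48 and 1.56 CPM. Of the heart genes, Hand1 had 0.954, 0.0435 and 0 CPM in pEpiLCs and at most 0.368 CPM elsewhere, while Nkx2-5, Isl1 and Hand2 were at or below 0.439 CPM throughout. Of the 13 genes, 8 were higher in replicate 1 than in both other pEpiLC libraries. Lower than both were 2, Pecam1 with 0.906 CPM against 2.39 and 1.98 and Tal1 with 0.191 CPM against 0.261 and 0.689. Here too the share over all genes was not counted, and nothing is read from the 8 and the 2. The sum of this list was 87.2 CPM in pEpiLC replicate 1 and 7.30 and 6.99 CPM in replicates 2 and 3. Thus in replicate 1 the high values of Gata4, Gata6, Sox17 and Cxcr4 came with high values of T, Mixl1, Lhx1, Mesp1 and Pdgfra, and their part in the result was not tested. In aEpiLCs against EpiLCs 1 rose and 3 fell, and in pEpiLCs against aEpiLCs 0 rose and 1 fell (0 and 1 without replicate 1).

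**Figure D5:**
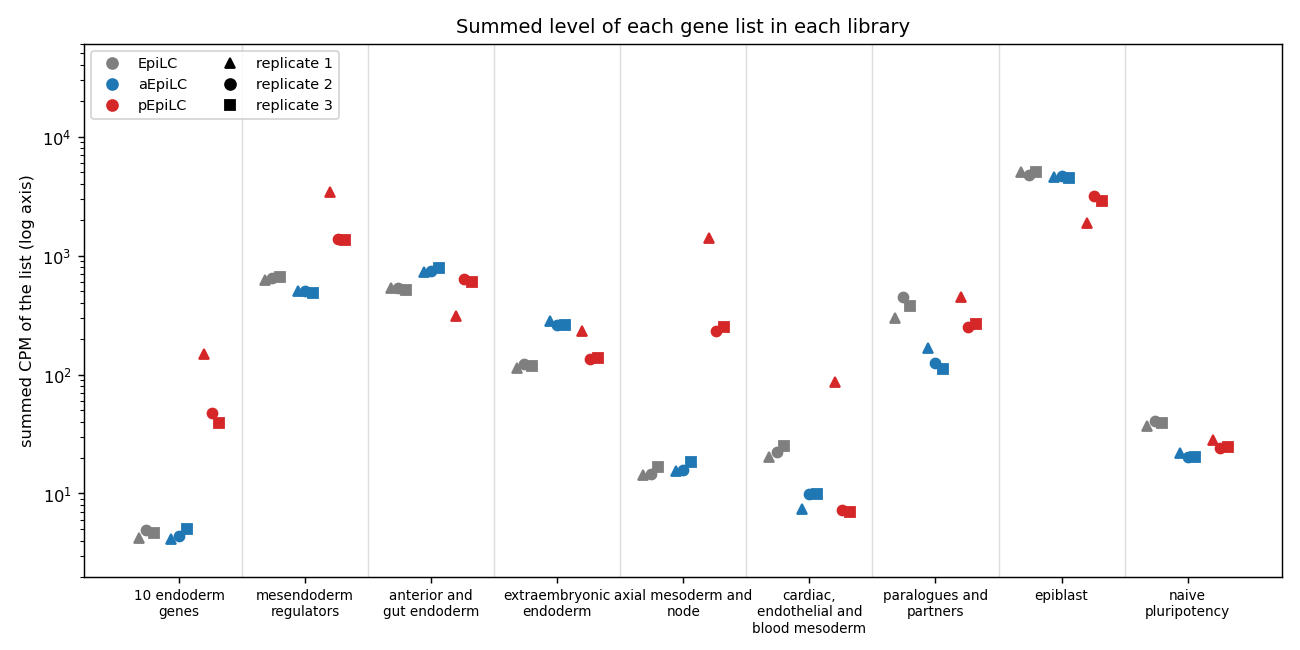
Summed level in CPM (vertical axis, logarithmic) of the 10 endoderm genes and of 8 gene lists in each library, coloured by state and shaped by replicate. pEpiLC replicate 1 lies highest of the 9 libraries for the 10 endoderm genes (149.8 CPM), mesendoderm, axial mesoderm (1395 CPM), cardiac, endothelial and blood mesoderm, and, by a small margin, paralogues and partners (450.7 against 446.3 CPM), and lowest for epiblast (1867 CPM) and for anterior and gut endoderm (312 CPM).

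Of 14 paralogues and partners of the 10 genes, 13 had a row and 6 were tested against EpiLCs. None rose and Sox18 fell, with a median of -0.43 (1 rose and 2 fell without replicate 1, median -0.64). Of the other GATA genes, Gata1, Gata2, Gata3 and Gata5 were at or below 0.782 CPM in every library. Of the other SOXF genes, Sox18 fell by 1.19 on the log2 scale (edgeR adjusted p = 0.0267), and by 1.15 without replicate 1 (edgeR adjusted p = 0.016), and Sox7 stayed near the floor. Dkk1, a Wnt antagonist of anterior endoderm, did not pass the filter and had 27.8, 0.435 and 0.551 CPM in pEpiLCs against at most 0.236 CPM elsewhere. Lefty1 and Lefty2, Nodal antagonists, rose against aEpiLCs, and they were the only genes of this list that did, of 6 tested, with 0 that fell (2 and 1 without replicate 1). In aEpiLCs against EpiLCs Cxcl12 rose and Lefty1, Lefty2 and Sox18 fell, of 7 tested.

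Of 8 epiblast genes, all tested, Fgf5 rose and Pou3f1, Utf1, Sox2, Sall2 and Dnmt3b fell in pEpiLCs against EpiLCs, with a median of -1.14 (1 rose and 3 fell without replicate 1, median -0.90). Their sum was 4730 to 5030 CPM in EpiLCs, 4478 to 4670 CPM in aEpiLCs, and 1867, 3186 and 2883 CPM in pEpiLCs, lowest in replicate 1. Against aEpiLCs 0 rose and 6 fell (0 and 4 without replicate 1), and between aEpiLCs and EpiLCs edgeR called 0 of 8. Of 8 naive pluripotency genes 0 rose and Nr0b1 and Dppa3 fell against EpiLCs, with a median of -0.55 (0 and 2 without replicate 1, median -0.63). Against aEpiLCs Esrrb rose and Klf2 and Nr0b1 fell of 6 tested (1 and 2 without replicate 1), and in aEpiLCs against EpiLCs Klf2 rose and 4 fell of 7.

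The genes most like each member were found among the 15797 genes that passed the filter over all 9 libraries, as those with the smallest root mean square difference in log2 CPM after each gene was centred on its own mean over the 9 libraries. For Foxa2 these were Sp5 (0.88), a target of Wnt signalling, Evx1 (0.92) and Gsc (0.93), all at or below 0.328 CPM in the other 6 libraries. Sp5 had 204.9, 38.7 and 38.3 CPM and Evx1 135.0, 11.7 and 11.8 CPM in pEpiLCs, a wider gap between replicate 1 and the others than Foxa2 showed. For Hhex the nearest were Grsf1 (0.17), Smad1 (0.18) and Has3 (0.18). Smad1, a mediator of BMP signalling, had 85.6, 31.3 and 25.6 CPM in pEpiLCs and 17.7 to 22.3 CPM in the other libraries. The nearest gene to both Sox17 (0.60) and Gata6 (1.08) was Gata4, another of the 10, followed by Cemip and Synpo for Sox17 and by Nxph4 and Plxna2 for Gata6. The nearest to Gata4 were Gas1 (0.58), Ptgs1 (0.61) and Krt222 (0.62), and Gas1 had 116 CPM in pEpiLC replicate 1 against 10.6 and 11.2 CPM in replicates 2 and 3. Foxa1 was nearest to Synpo (0.37), A930007I19Rik (0.46) and Upp1 (0.47), and Cxcr4 to A930007I19Rik (0.33), Adra2b (0.46) and Slit2 (0.47). Cer1 was nearest to Zfp703 (0.48), Gna14 (0.55) and Grrp1 (0.56), which like Cer1 were above the other states in all 3 pEpiLC libraries and highest in replicate 1. Foxa3 was nearest to Msh5 (0.17), Gm43080 (0.18) and Adam4 (0.19), none of which had its highest library in pEpiLCs. The points share libraries and depth, and likeness of pattern says nothing of shared control.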

How the data were processed

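Total RNA of 9 libraries was sequenced as paired-end reads. Per the labels and the study's methods, the authors used STAR (2.7.9a) to map reads to GRCm38 and estimated expected counts per gene symbol with RSEM (1.3.1), which is the deposited unit, not normalised. Annotation, strandedness and read cleaning are not given in the sources used here. About 20% of the deposited expected counts are not whole, so all were rounded, although every value of the 10 genes was whole. Counts were scaled by TMM over the 9 libraries for CPM. Each pair of states was fitted on its 6 libraries with edgeR (4.0.16, R 4.3.3) after filterByExpr, by the quasi-likelihood test, and the standard error is the absolute log2 fold change over the root of F. Calls needed a Benjamini-Hochberg adjusted p (over all genes tested) under 0.05 together with a log2 fold change of 1 or more in size. Exact two-sided permutation tests used log2(CPM + 0.5). In simulated data with 200 genes changed by 2 on the log2 scale, 86.5% were called in pEpiLC against EpiLC (15021 genes), 95.5% in aEpiLC against EpiLC (15066 genes) and 91.0% in pEpiLC against aEpiLC (14973 genes). Alternatives were RLE size factors, DESeq2 (1.42.0), the likelihood ratio test, no filter, at least 10 counts in every library, all 9 libraries in 1 fit, a replicate block, no fold limit and leaving out each library. Added after seeing the data were voom with sample quality weights (limma 3.58.1), the robust quasi-likelihood fit, and no filter without pEpiLC replicate 1. Libraries of 1 state differed by more than sampling noise, with a chi-square per degree of freedom of at least 4.37, so none was the same library deposited again, which does not show that they came from separate cultures. Promoters and their coordinates are from RefSeq (GRCm38.p6), with entries for 7 of the 10 genes. Named genes are the 10 members, the called genes of each list (at most 4 per direction, by size) and those a sentence turns on, and the 3 nearest patterns of each member with at least 10 counts in some library. Members and lists were chosen with earlier results of these data known. A gene of the list of paralogues and partners is not reported here and was left out of that list's counts.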

Additional observations from a re-analysis of the deposited data

How the results depend on the processing

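The call of Foxa2 kept its direction and its side of the threshold in each of 15 alternatives in both pEpiLC comparisons, and it was absent where 10 counts were required of each library. The number of the 10 genes called higher against EpiLCs was 2. It was 1 with at least 10 counts in every library and with voom quality weights, 5 with all 9 libraries in 1 fit, and 1 to 4 when 1 library was left out (4 without pEpiLC replicate 2, 1 without pEpiLC replicate 1 or any EpiLC replicate). All genes called, higher or lower, were 1618 with at least 10 counts in every library and 2381 with voom quality weights. They were 2590 with all 9 libraries in 1 fit, and 1989 to 2565 when 1 library was left out. Against aEpiLCs the number of the 10 called higher was 1. It was 2 with DESeq2, 3 with the likelihood ratio test, 2 with no filter, 0 with at least 10 counts in every library, 2 with all 9 libraries in 1 fit, and 1 to 2 when 1 library was left out. All genes called, higher or lower, were 1177 with DESeq2, 1404 with the likelihood ratio test and 1139 with no filter. They were 850 with at least 10 counts in every library and 1363 with all 9 libraries in 1 fit. For aEpiLCs against EpiLCs the number of the 10 called higher was 0 in every alternative, and no alternative called any of the 10 lower. All genes called were 2421 (6759 with no limit on fold change) against EpiLCs, 1911 in aEpiLCs against EpiLCs (1259 with at least 10 counts in every library, 7130 with no limit on fold change), and 1108 against aEpiLCs (2369 with no limit, and 514 to 1148 when 1 library was left out, with 648, 514 and 583 without aEpiLC replicate 1, 2 or 3). The fitted log2 fold change of Hhex in aEpiLCs against EpiLCs, 0.08, was -0.033 with voom quality weights and ran from -0.035 to 0.29 when 1 library was left out, a sign change of a value that was not called. Against aEpiLCs, Gata4 was at -0.066 and Cxcr4 at -0.17 without pEpiLC replicate 1, with ranges when 1 library was left out of -0.066 to 3.97 and -0.17 to 2.52. The cause of these changes was not tested. Same-numbered replicates deviated together with a correlation of 0.0259, 0.0338 and 0.0153 for pEpiLC and EpiLC, and 0.172, 0.117 and 0.0622 for pEpiLC and aEpiLC, where each library correlated best with its own number, but not in aEpiLC and EpiLC (0.0211, -0.0570 and -0.0601), so the numbers were read as names only. With the replicate block 3 of the 10 genes were called higher against EpiLCs and 1 against aEpiLCs, beside 2299 and 1123 of all genes called higher or lower. Cxcr4 against EpiLCs was then called at a log2 fold change of 1.99 (edgeR adjusted p = 0.0493). Depth limits Sox17, Gata4, Gata6, Foxa1, Cer1 and Hnf4a, which had 12 counts or fewer in every library but pEpiLC replicate 1, or 13 for Cer1.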
